A study of Mus musculus with 18 samples.

Results

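The response to interleukin-4 was compared between microglia and macrophages of the injured mouse spinal cord. For each gene, the log2 fold change of rIL-4 against PBS in macrophages was subtracted from the same fold change in microglia. A positive difference therefore means a response that was larger, that is more positive, in microglia, and it includes genes that fell in both cell types but fell less in microglia. All genes were eligible. Of 53465 annotated genes, 15800 passed the filter on low counts and were tested in 12 of the 18 libraries of the study. These 12 libraries came from 6 of its 9 mice, because each cord gave a microglia and a macrophage sample.

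All mice were adult C57BL/6J females with a contusion of the spinal cord, and no genetic change is given for any group. At 48 h after the spinal cord injury (SCI), 3 mice (numbered 1, 2 and 3) received PBS and 3 mice (numbered 8, 9 and 10) received recombinant IL-4 in the lesion. Cells were collected 24 h later. Microglia were sorted as CD45low CD11b+ F4/80+ cells and macrophages as CD45high CD11b+ F4/80+ cells, so that the cell types rest on surface protein levels and on no lineage label. There were no uninjured or uninjected mice. The amount of RNA that entered cDNA synthesis differed between samples. Since bulk RNA was sequenced, fewer cells of a type and less RNA per cell cannot be told apart in any value below.

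IL-4 binds the IL-4 receptor alpha chain, which pairs with the common gamma chain or with the IL-13 receptor alpha 1 chain. The receptor activates Janus kinases, and these phosphorylate STAT6, a transcription factor that drives genes of alternative activation such as *Retnla* and *Chil3*. Microglia are the resident macrophages of the central nervous system, whereas the macrophages of a fresh lesion derive mainly from blood monocytes.

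The libraries held between 36445342 and 45849829 counts. Genes with at least 1 count numbered between 15193 and 15626 in the rIL-4 microglia, between 17620 and 18371 in the PBS microglia, and between 17452 and 18174 in the 6 macrophage libraries. The rIL-4 microglia thus had fewer genes with a count than every other library. Genes with at least 10 counts numbered 13338 to 13744 in them, against 12895 to 13474 in the macrophages and 15113 to 15463 in the PBS microglia. At this level they overlapped the macrophages and lay below the PBS microglia. Genes of homeostatic microglia (25 genes, among them *P2ry12* and *Tmem119*) summed to 14959 to 25592 CPM (counts scaled to the library total) in PBS microglia, 6895 to 9672 in rIL-4 microglia, 5387 to 8095 in PBS macrophages and 2913 to 3439 in rIL-4 macrophages. Genes of monocyte-derived macrophages (32 genes, among them *Ccr2* and *Ly6c2*) summed to 3336 to 5056, 3843 to 5551, 15326 to 18475 and 13306 to 14855 in the same order. Both lists therefore ranked the cell types as labelled, within each injection.

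RNA of other cells was present, mainly in the microglia libraries. Fibroblast and pericyte markers (22 genes) summed to 3387 to 5254 CPM in PBS microglia and 545 to 2275 in rIL-4 microglia, against 16.8 to 31.2 and 11.8 to 16.1 in the macrophages. Endothelial markers (15 genes) summed to 1534 to 3061 and 2739 to 4243 in the microglia, and to 50.9 to 66.8 with PBS and 227 to 397 with rIL-4 in the macrophages. Smooth muscle markers (12 genes, a list added after the values were seen) summed to 553 to 826 with PBS and 72.6 to 126 with rIL-4 in the microglia, and were at most 13.1 in macrophages. Neutrophil markers (15 genes) summed to 284 to 303 CPM in PBS microglia, 131 to 224 in rIL-4 microglia, 1160.3 to 1782 in PBS macrophages and 309.6 to 1014 in rIL-4 macrophages. *Mpo* was at 0 in all microglia libraries, *Elane* in those with PBS and *Ly6g* in those with rIL-4. T, NK and B lymphocyte markers (16 genes) summed to 43.3 to 137 CPM in PBS microglia, 36.7 to 92.7 in rIL-4 microglia, 11.6 to 24.4 in PBS macrophages and 4.91 to 7.68 in rIL-4 macrophages, with 10 and 12 of the 16 at 0 in the PBS and rIL-4 microglia. Among those at 0 in both were the defining T and B cell genes *Cd3e*, *Cd3g* and *Ms4a1*, while *Ighm*, an immunoglobulin heavy chain gene, had 1243–4318 normalized counts in PBS microglia and 1366–3217 in rIL-4 microglia.

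**Figure D1:**
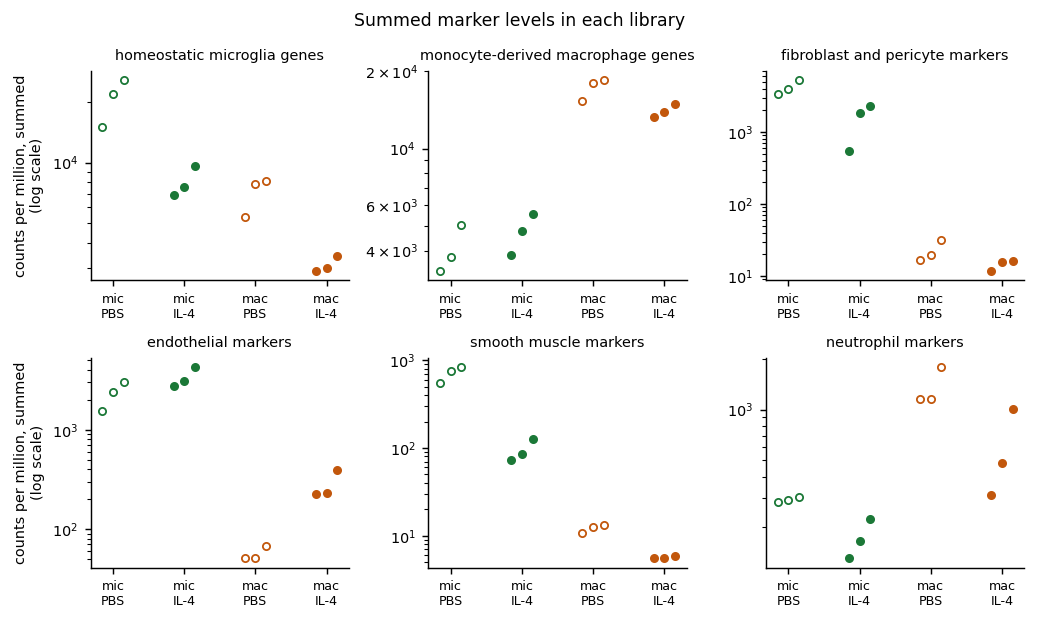
Summed CPM of 6 marker lists (vertical axes, log scale) in microglia (mic, green) and macrophages (mac, orange) with PBS (open) or rIL-4 (filled). Each point is a library, ordered by value within its group. The fibroblast and smooth muscle sums were lower in all 3 rIL-4 microglia libraries than in the PBS microglia, and the endothelial sum was higher in all 3 rIL-4 macrophage libraries (227 to 397) than in the PBS macrophages (50.9 to 66.8).

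The IL-4 response differed between the cell types for 202 of 15800 genes (1.28%) at an adjusted p under 0.05 (edgeR's quasi-likelihood test with Benjamini-Hochberg adjustment over all genes tested). The response was larger in microglia for 105 genes (0.665%) and larger in macrophages for 97 genes (0.614%). At an unadjusted p under 0.05 there were 2139 genes. Against PBS, rIL-4 changed 1352 genes (8.56%) in microglia, of which 576 rose (3.65%) and 776 fell (4.91%), and 1198 genes (7.58%) in macrophages, of which 505 rose (3.20%) and 693 fell (4.39%). The difference was in most cases a change called in only 1 of the cell types. Among the 105 genes, 59 fell in macrophages and were not called in microglia, 29 rose in microglia and were not called in macrophages, 11 fell in both, 4 rose in both, 1 rose in microglia and fell in macrophages, and 1 was called in neither. Among the 97 genes, 47 rose in macrophages and were not called in microglia, 38 fell in microglia and were not called in macrophages, 5 fell in microglia and rose in macrophages, 4 fell in both, 2 rose in both, and 1 was called in neither.

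Counted only over called genes with a mean of at least 10 normalized counts in each of the 4 groups, 80 genes with a larger response in microglia had a median log2 fold change of 0.47 in microglia and -1.38 in macrophages, with differences from 0.84 to 5.23. The corresponding 58 genes with a larger response in macrophages had medians of -0.43 in microglia and 1.16 in macrophages, with differences from -5.81 to -0.82. These medians describe genes that were chosen by the same contrast. Within each mouse, the gap between the cell types is the log2 level in microglia minus that in macrophages, after adding 1 to the normalized counts. The gaps of the 3 rIL-4 mice and the 3 PBS mice did not overlap for 21.8% of all genes tested (larger with rIL-4 for 10.3%, smaller for 11.5%), and for all 105 and all 97 called genes. The called genes were chosen by the same difference in the same libraries, so that their separation describes the choice and does not test it. Just inside the threshold lay *Pdcd1lg2* (adjusted p = 0.0494) and *Grip2* (0.0499), and just outside lay *Rasgrp4* and *Ccnb2* (both 0.0504, edgeR).

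The number of calls depended on single mice. Without PBS mouse 3, 14 genes were called by edgeR, and the number was 29 without PBS mouse 1 and 52 without PBS mouse 2. Leaving out rIL-4 mouse 8, 9 or 10 gave 126, 204 and 51 calls. In each of these fits all 202 genes kept the sign of their difference. The fits share most libraries with the one that chose these genes, so that the kept signs are no separate test. DESeq2's Wald test on the same libraries called 849 genes, which included the 202. With the mouse as a block, as each mouse gave a library of either cell type, edgeR called 186 genes, of which 112 were among the 202. Where the block changed the call of a gene named below, its adjusted p stands beside the result, except for genes given by name only.

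**Figure D2:**
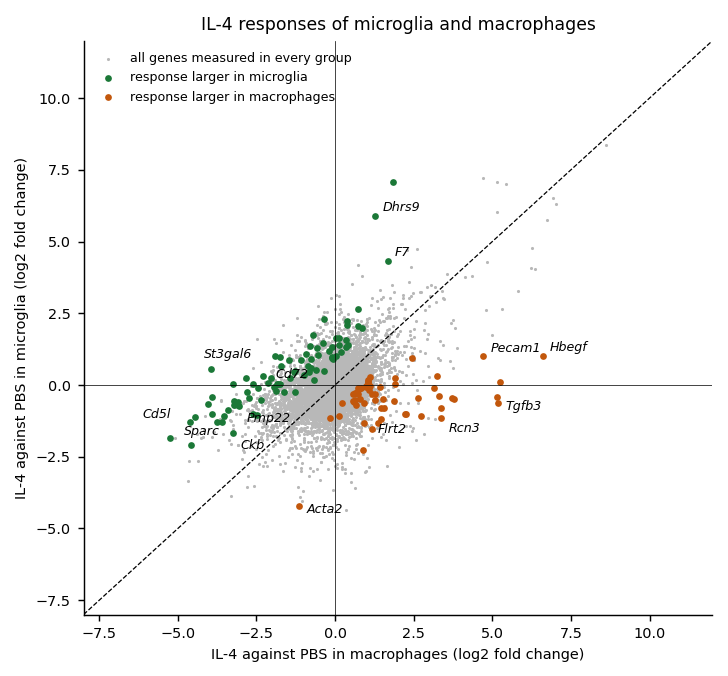
Log2 fold change of rIL-4 against PBS in macrophages (horizontal axis) and in microglia (vertical axis) for genes with a mean of at least 10 normalized counts in every group. Grey points are all such genes, green points the 80 with a larger response in microglia, orange points the 58 with a larger response in macrophages, and the dashed line marks equal responses. Most green points lie left of 0 on the macrophage axis, where their median is -1.38.

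Genes that fell steeply in macrophages led the calls with a larger response in microglia. *Pmp22* (chr11:63128982-63159547 in GRCm38), a tetraspan membrane protein known from peripheral myelin, was the gene with the lowest p in this direction. *Pmp22* had 12932, 10161 and 14150.1 normalized counts in the PBS microglia, 7295, 7726 and 7158 in the rIL-4 microglia, 4075, 2863 and 4005 in the PBS macrophages and 467, 402 and 406 in the rIL-4 macrophages. All 3 rIL-4 macrophage libraries lay far below every other library. *Pmp22* fell by 3.05 on the log2 scale in macrophages (adjusted p = 1.91e-06, edgeR) and by 0.74 in microglia (adjusted p = 0.0172, edgeR). The log2 difference was 2.31 (standard error 0.23, adjusted p = 0.00164, edgeR).

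*Cd72* (chr4:43446462-43454628) encodes an inhibitory lectin receptor of B cells and myeloid cells. *Cd72* had 4989, 4506 and 4253 normalized counts in the PBS microglia, 5304, 5045 and 3875 in the rIL-4 microglia, 1447, 1189 and 1622 in the PBS macrophages and 317, 299.8 and 326 in the rIL-4 macrophages. The microglia with rIL-4 and PBS overlapped, while the macrophages did not. The log2 fold change was 0.06 (adjusted p = 0.883, edgeR) in microglia and -2.12 (adjusted p = 2.29e-05, edgeR) in macrophages, a difference of 2.18 (standard error 0.22, adjusted p = 0.00164, edgeR). *St3gal6* (chr16:58468125-58524243), a sialyltransferase, also dropped in macrophages. *St3gal6* had 3887, 2318 and 2326 normalized counts in the PBS microglia, 3872, 4449 and 4235 in the rIL-4 microglia, 339, 191 and 259 in the PBS macrophages and 12.0, 10.9 and 25.8 in the rIL-4 macrophages. The log2 fold change was 0.57 (adjusted p = 0.261, edgeR) in microglia and -3.95 (adjusted p = 6.05e-05, edgeR) in macrophages, and the difference was 4.51 (standard error 0.46, adjusted p = 0.00164, edgeR). *Tesk1* overlaps 41.6% of the exon bases of *Cd72*, and *Dcbld2* 26.0% of those of *St3gal6*. The libraries carry no strand, so that reads in these stretches cannot be assigned to either gene with certainty.

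*Cd5l* (chr3:87357881-87371073) encodes a secreted scavenger receptor cysteine-rich protein of tissue macrophages that inhibits apoptosis. *Cd5l* had 1161, 1803 and 2564 normalized counts in the PBS microglia, 679, 649.8 and 906 in the rIL-4 microglia, 1369.8, 1039.5 and 1658 in the PBS macrophages and 46.3, 45.7 and 66.9 in the rIL-4 macrophages. The cell types overlapped with PBS, and with rIL-4 every macrophage library was below every microglia library. *Cd5l* fell by 1.29 on the log2 scale in microglia (adjusted p = 0.0223, edgeR) and it fell by 4.62 in macrophages (adjusted p = 2.28e-05, edgeR), with a difference of 3.32 (standard error 0.43, adjusted p = 0.00575, edgeR). Its promoter is shown because, of the 24 leading genes of both directions, 19 had an entry in the RefSeq promoter table of GRCm38.p6, and *Cd5l* and *Itm2c* were the 2 whose window holds TTC, any 4 bases and GAA, the palindrome known as the preferred STAT6 site. The window runs from 250 bases before to 50 bases after the annotated start, and the match to this pattern, which is symmetric between the strands, is in capitals.
Cd5l, chr3:87357631-87357930, plus strand: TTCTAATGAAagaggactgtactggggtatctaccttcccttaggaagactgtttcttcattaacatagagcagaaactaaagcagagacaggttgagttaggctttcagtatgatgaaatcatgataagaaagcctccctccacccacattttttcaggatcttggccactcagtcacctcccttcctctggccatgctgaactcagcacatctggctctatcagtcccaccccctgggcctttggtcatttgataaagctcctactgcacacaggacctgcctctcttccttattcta
Itm2c, chr1:85894260-85894559, plus strand: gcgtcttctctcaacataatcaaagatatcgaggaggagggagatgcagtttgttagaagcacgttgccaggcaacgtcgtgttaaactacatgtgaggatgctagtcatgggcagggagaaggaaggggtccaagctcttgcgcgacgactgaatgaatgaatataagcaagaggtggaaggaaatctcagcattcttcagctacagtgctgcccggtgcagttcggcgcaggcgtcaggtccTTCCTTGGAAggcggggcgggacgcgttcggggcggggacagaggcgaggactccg
The start used for *Itm2c* is that of the promoter table and lies downstream of the first base of the gene as given below. In *Cd5l* the match begins at base -250 from the start, the first base of the window, and in *Itm2c* at base -6. The letters occurred in 6.78% of the tested genes with an entry (755 of 11131), in 8.64% of the called genes with a larger response in microglia (7 of 81) and in 8.00% of those with a larger response in macrophages (6 of 75). A match describes the letters in this window and is not a binding site.

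Other genes of this direction followed the same course. *Sparc* had 97548, 66274 and 58914 normalized counts in the PBS microglia, 40461, 31748 and 28733 in the rIL-4 microglia, 8205, 3299 and 8566 in the PBS macrophages and 358, 223 and 305 in the rIL-4 macrophages. *Sparc*, a matrix-associated glycoprotein that resident microglia express, fell in both cell types and more so in macrophages, with a difference of 3.31 (standard error 0.46, adjusted p = 0.00854, edgeR). *Hpgds*, the haematopoietic prostaglandin D synthase, went from 2673–3609.9 to 245–501 normalized counts in macrophages and from 5529–9601 to 4686–5518 in microglia, a difference of 2.52 (adjusted p = 0.00854, edgeR). *Ckb*, the brain-type creatine kinase, fell in both cell types, from 21377–24419.6 to 6783–7718 in microglia and from 4777–6177 to 532–611 in macrophages, a difference of 1.56 (adjusted p = 0.00316, edgeR). *Rgs1*, which damps signalling of chemokine receptors, had, unlike these genes, its higher level in macrophages. *Rgs1* had 4006, 3702 and 3314 normalized counts in the PBS microglia, 4025, 3800.1 and 5202 in the rIL-4 microglia, 35739, 42709 and 37351 in the PBS macrophages and 13195, 14766 and 12933 in the rIL-4 macrophages. It fell in macrophages by 1.45 on the log2 scale (adjusted p = 1.58e-04, edgeR), and its difference was 1.71 (standard error 0.21, adjusted p = 0.00448, edgeR).

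Several genes of this direction, grouped here from the leading calls, are also known from the cells of blood vessels. Of the 15 genes on the endothelial list, 2 had a larger response in microglia and 1 in macrophages. The median difference of that list was 1.57, and -0.48 over the genes that reach 10 counts in each library. *Jam2*, a junctional adhesion molecule, went from 294–586 to 23.0–35.2 normalized counts in macrophages and from 3763–4606 to 2415–3223 in microglia, a difference of 3.40 (adjusted p = 0.00237, edgeR). *Cd34*, a sialomucin of progenitors and endothelium, went from 1122–3128 to 206–268 in macrophages and was at 17580.0–19042 with rIL-4 against 14549.9–22984 with PBS in microglia, a difference of 3.28 (adjusted p = 0.00607, edgeR). For *Ctla2a*, a cysteine protease inhibitor with the close paralog *Ctla2b*, the difference was 3.49 (adjusted p = 0.00854, edgeR). The corresponding values were 4.41 (adjusted p = 0.00448, edgeR) for *Ecscr*, an endothelial surface protein, and 3.15 (adjusted p = 0.00575, edgeR) for *Slco1c1*, a thyroid hormone transporter of brain endothelium. In the rIL-4 macrophages *Ecscr* was at 1.85–13.9 and *Slco1c1* at 5.96–7.41 normalized counts. *Slco1c1* also rose in microglia, from 4206–6249 to 9811–17045, by 1.41 on the log2 scale (adjusted p = 0.00245, edgeR). The summed endothelial markers were higher with rIL-4 in macrophages, in a sum that includes *Pecam1* (from 292–399.9 to 5681–12391 normalized counts), and went from 1534–3061 to 2739–4243 CPM in microglia. Of the 15 markers, 7 fell and 2 rose in macrophages (median -1.58 on the log2 scale), and the median marker was there at 0.664% to 0.838% of the microglia level of its mouse with PBS and 0.0521% to 0.326% with rIL-4. The part of endothelial RNA in the results was not tested. *Tgfa*, a ligand of the EGF receptor, went from 188–449 to 4.78–14.9 in macrophages, with 2051–3349 in rIL-4 microglia and a difference of 4.72 (adjusted p = 0.00316, edgeR). *Pcp4l1*, a relative of Purkinje cell protein 4, went from 108–205 to 0.956–7.41 in macrophages, with a difference of 5.36 (adjusted p = 0.00316, edgeR) that was 7.06 without rIL-4 mouse 8. That of *Ecscr* was 5.27 without rIL-4 mouse 9.

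*Dhrs9* (chr2:69380445-69404533), a dehydrogenase that acts on retinol, was the leading gene that rose in microglia. *Dhrs9* had 6.84, 7.85 and 18.3 normalized counts in the PBS microglia, 353, 586 and 1020.3 in the rIL-4 microglia, 1165, 862 and 991 in the PBS macrophages and 2744, 1909 and 2426 in the rIL-4 macrophages. All rIL-4 microglia lay above all PBS microglia, and still below every macrophage library with rIL-4. *Dhrs9* rose in microglia by 5.89 on the log2 scale (adjusted p = 3.85e-05, edgeR), had 1.28 (adjusted p = 0.0534, edgeR) as the log2 fold change in macrophages, and a difference of 4.60 (standard error 0.58, adjusted p = 0.00448, edgeR). *Ccr7*, the chemokine receptor of migrating dendritic cells, had no count in the PBS microglia and 414, 142 and 824 normalized counts in the rIL-4 microglia, at least 166-fold higher against a floor of 3 counts per library. In macrophages it was at 120.1, 18.9 and 84.6 with PBS and 342, 163 and 194 with rIL-4 (adjusted p of the difference = 0.0239, edgeR).

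Of the 12 leading genes with a larger response in microglia that were measurable in every group, *Pmp22*, *Cd72*, *St3gal6*, *Jam2*, *Cd5l* and *Ctla2a* were called whichever of the 6 mice was left out, as were *Tgfa* and *Pcp4l1*. Without PBS mouse 3, the adjusted p in edgeR was 0.0556 for *Ckb*, 0.0660 for *Rgs1*, 0.0853 for *Cd34*, 0.0936 for *Sparc*, 0.0556 for *Hpgds*, 0.0660 for *Ecscr* and 0.0616 for *Slco1c1*. Without PBS mouse 1, it was 0.0514 for *Dhrs9* and 0.0720 for *Hpgds*, and without rIL-4 mouse 10 0.0535 for *Hpgds*. *Ccr7* was called in 2 of the 6 fits without a mouse, with adjusted p from 0.0333 to 0.145.

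**Figure D3:**
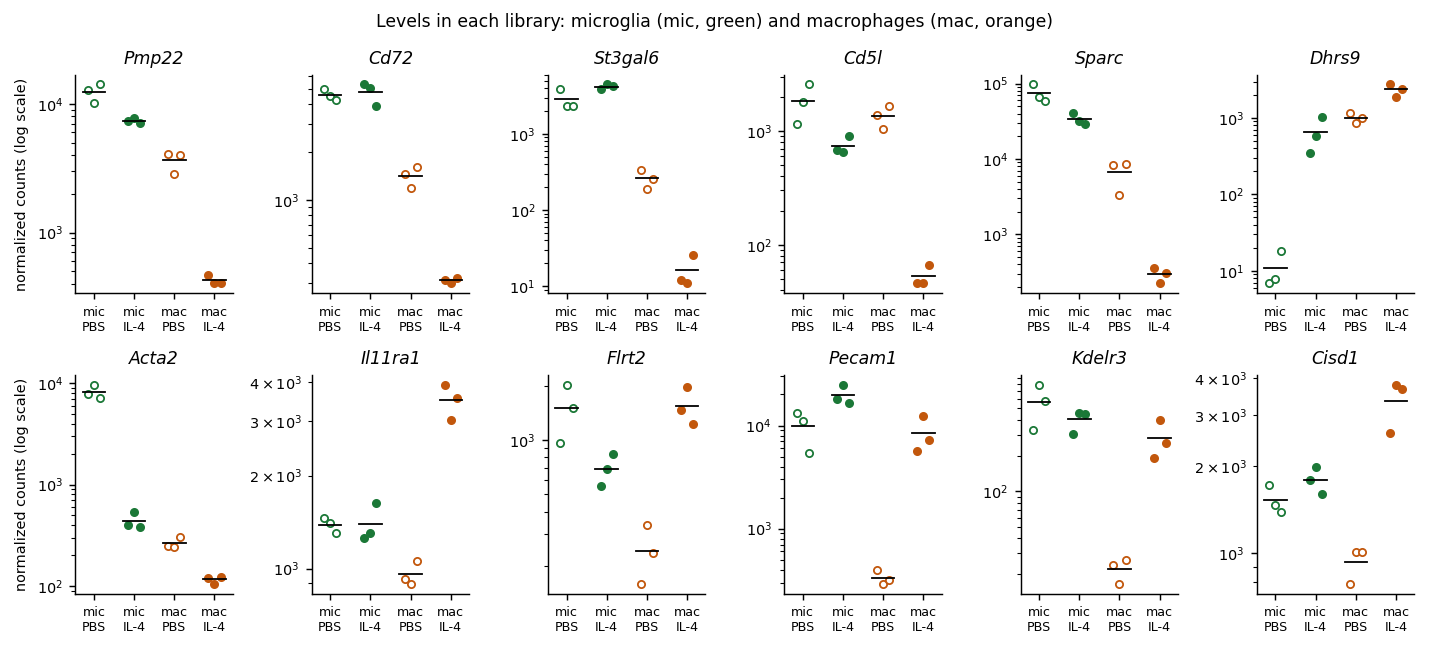
Normalized counts (vertical axes, log scale) of 12 genes in every library of microglia (mic, green) and macrophages (mac, orange) with PBS (open) or rIL-4 (filled). Points are libraries and bars are means of 3 mice. In the upper row the macrophages of *Pmp22*, *Cd72*, *St3gal6*, *Cd5l* and *Sparc* drop with rIL-4 and *Dhrs9* rises in microglia, and in the lower row *Acta2* drops in microglia and the other 5 genes rise in macrophages.

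Expressed within a mouse, the macrophage level of the 105 genes was 28.4% to 35.8% of the microglia level with PBS and 7.37% to 7.63% with rIL-4 (median gene of each mouse). For the 97 genes with a larger response in macrophages it was 42.6% to 53.5% with PBS and 162% to 181% with rIL-4. Over all genes tested it was 89.4% to 90.5% and 92.9% to 94.8%. The values of the 105 and the 97 genes belong to genes chosen by this contrast and describe its size. The homeostatic microglia genes were at 28.9% to 33.0% with PBS and 9.53% to 15.7% with rIL-4, and the monocyte-derived macrophage genes at 548% to 624% and 289% to 503%. Both lists were set with earlier results of these data known, and the homeostatic list holds 3 called genes. In both of these lists the 3 rIL-4 mice lay below the 3 PBS mice.

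**Figure D4:**
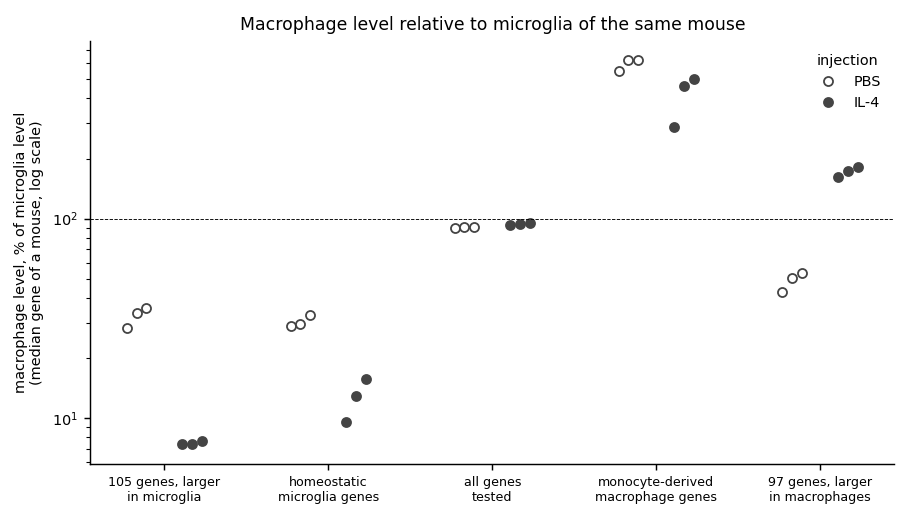
Macrophage level as a percent of the microglia level of the same mouse (vertical axis, log scale), as the median over the genes of each set, in mice with PBS (open) or rIL-4 (filled). Each point is a mouse, ordered by value. The homeostatic microglia genes are at 28.9% to 33.0% with PBS and 9.53% to 15.7% with rIL-4, while all genes tested stay between 89.4% and 94.8%.

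The homeostatic genes of microglia include purinergic and fractalkine receptors by which resident microglia survey the tissue. Of the 25 tested, 3 had a larger response in microglia and 0 a larger response in macrophages, with a median difference of 0.91, against -0.01 over all genes, and 17 of them above 0. With the mouse as a block 8 and 0 were called by edgeR. In microglia 14 fell and 0 rose (median -1.25), and in macrophages 17 fell and 0 rose (median -2.53). Over all genes tested, 0.665% were called with a larger response in microglia and 0.614% in macrophages, and 4.91% fell in microglia and 4.39% in macrophages. *Cx3cr1* had 75599, 38709 and 71084 normalized counts in the PBS microglia, 19712, 11592 and 11971 in the rIL-4 microglia, 18816, 10454 and 20445 in the PBS macrophages and 659, 586 and 762 in the rIL-4 macrophages. *Cx3cr1*, the fractalkine receptor, was lower with rIL-4 in both cell types without overlap, and its difference was 2.48 (standard error 0.44, adjusted p = 0.0248, edgeR). *Fcrls*, an Fc receptor-like gene of microglia, went from 10643–20752 to 881–1608 in macrophages and from 36849–67698 to 16883–29122 in microglia, a difference of 2.46 (standard error 0.45, adjusted p = 0.0284, edgeR). The third called gene was *Sparc*.

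The other homeostatic genes did not pass the threshold in edgeR without the block. At an unadjusted p under 0.05, 11 of the 25 lay above 0 and 4 below 0, and DESeq2 called 8, all above 0. *Tmem119*, a membrane protein used as a microglia marker, fell in both cell types and had a difference of 1.43 (standard error 0.39, adjusted p = 0.102, edgeR), with 0.0186 as the adjusted p with the mouse as a block and 0.00819 in DESeq2. For *P2ry12*, the purinergic receptor of process extension, it was 0.59 (standard error 0.56, adjusted p = 0.768, edgeR). The differences of 3 genes named after their values were seen were 3.06 (adjusted p = 0.0614, edgeR) for the transcription factor *Sall1* (block 0.0132, DESeq2 8.59e-04), 2.58 (adjusted p = 0.191, edgeR) for *Siglech* and 2.43 (adjusted p = 0.142, edgeR) for the receptor *Gpr34* (block 0.00964, DESeq2 0.0143). In the rIL-4 macrophages *Sall1* was at 16.3–26.9 normalized counts against 148–568 with PBS. *Cx3cr1* and *Fcrls* were not called without PBS mouse 1 (adjusted p = 0.111 and 0.126), PBS mouse 3 (0.152 and 0.167) or rIL-4 mouse 10 (0.0699 and 0.0881, edgeR), and *Cx3cr1* also not without rIL-4 mouse 8 (0.0596). Of 32 genes of monocyte-derived macrophages, 0 were called by edgeR in either direction (9 and 2 at an unadjusted p under 0.05, 4 and 1 by DESeq2, 0 and 1 with the block), with a median difference of 0.74. The lowest p among them was that of *S100a4*, at 1.82 (adjusted p = 0.0578, edgeR). *Ccr2* and *Ly6c2* had differences of 0.86 (adjusted p = 0.622, edgeR) and 1.07 (adjusted p = 0.762, edgeR).

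Among the genes with a larger response in macrophages, *Acta2* (chr19:34241090-34255590), the actin of smooth muscle and myofibroblasts, had the lowest p of all genes tested. *Acta2* had 7799.8, 9672 and 7208 normalized counts in the PBS microglia, 396, 533 and 385 in the rIL-4 microglia, 248, 240.3 and 305 in the PBS macrophages and 120.4, 105 and 122 in the rIL-4 macrophages. Every rIL-4 microglia library was below every PBS microglia library and still above every macrophage library. *Acta2* fell by 4.22 on the log2 scale in microglia (adjusted p = 3.98e-07, edgeR) and by 1.14 in macrophages (adjusted p = 0.00221, edgeR), with a difference of -3.08 (standard error 0.25, adjusted p = 6.07e-04, edgeR). Among the 12 smooth muscle markers, *Acta2* and *Tagln*, an actin-binding protein, were called, and 9 fell in microglia and 2 in macrophages. Over all genes tested, 0.614% were called in this direction, and 4.91% fell in microglia and 4.39% in macrophages. The list was put together after the values were seen, so that its counts are a description. The median difference of the list was -2.30 (-2.64 at bounds). *Tagln*, which shares 67.9% of its exon bases with other genes, went from 1553–2457 to 109–224 in microglia, with a difference of -3.58 (adjusted p = 0.0162, edgeR). *Myh11*, the smooth muscle myosin heavy chain, was at 1074–2228 and 40.6–176 in microglia and at no more than 3 counts in any macrophage library. The part of smooth muscle RNA in the *Acta2* result was not tested.

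*Pecam1* (chr11:106654217-106750628), an adhesion molecule of endothelium and leukocytes, is a further marker gene. *Pecam1* had 13349, 11082 and 5443 normalized counts in the PBS microglia, 18186, 24842 and 16535 in the rIL-4 microglia, 399.9, 292 and 314 in the PBS macrophages and 5681, 12391 and 7241 in the rIL-4 macrophages. The PBS macrophages were far below all other libraries, and with rIL-4 mouse 9 had the highest macrophage level. *Pecam1* rose in macrophages by 4.71 on the log2 scale (adjusted p = 3.90e-05, edgeR), against 1.01 (adjusted p = 0.0878, edgeR) in microglia, a difference of -3.70 (standard error 0.49, adjusted p = 0.00590, edgeR). The other endothelial genes called went the opposite way. *Tek*, the angiopoietin receptor, was at 14.7–20.1 normalized counts in PBS macrophages and 0–3.83 in rIL-4 macrophages, with a difference of 3.17 (adjusted p = 0.0367, edgeR) and 0.0760 as the adjusted p with the mouse as a block. *Cldn5*, the claudin of the blood-brain barrier, was at 65.1–136 and 27.7–41.7, with a difference of 2.34 (adjusted p = 0.0394, edgeR). The higher endothelial sum of the rIL-4 macrophages thus included *Pecam1*, while *Cldn5* and *Tek* were lower there than with PBS.

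*Il11ra1* (chr4:41699989-41769474), the receptor chain for interleukin-11, has near-identical copies with which it can share reads. *Il11ra1* had 1453, 1404 and 1299.7 normalized counts in the PBS microglia, 1254, 1302 and 1634 in the rIL-4 microglia, 929, 894 and 1059.8 in the PBS macrophages and 3932, 3029 and 3574 in the rIL-4 macrophages. Every rIL-4 macrophage library lay above every other library. The difference was -1.90 (standard error 0.22, adjusted p = 0.00316, edgeR). *Flrt2*, an adhesion protein of the fibronectin and leucine-rich repeat family, was lower in microglia and higher in macrophages with rIL-4. *Flrt2* had 966, 2020.5 and 1496 normalized counts in the PBS microglia, 556, 690.4 and 833 in the rIL-4 microglia, 159, 336 and 234 in the PBS macrophages and 1468, 1963 and 1220.4 in the rIL-4 macrophages. It rose in macrophages by 2.72 on the log2 scale (adjusted p = 6.31e-04, edgeR) and had -1.09 (adjusted p = 0.0599, edgeR) in microglia, a difference of -3.81 (standard error 0.47, adjusted p = 0.00448, edgeR). *Pdlim1*, a cytoskeletal adaptor, went from 261–392 to 1489–2595 in macrophages, a difference of -3.07 (adjusted p = 0.0216, edgeR), and *Sept11*, a septin, from 1218–1593 to 2553–3345, a difference of -1.49 (adjusted p = 0.0211, edgeR).

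*Cisd1* (chr10:71330480-71344954) encodes mitoNEET, an iron-sulphur protein of the outer mitochondrial membrane. *Cisd1* had 1721, 1469 and 1388 normalized counts in the PBS microglia, 1782, 1989 and 1605 in the rIL-4 microglia, 786, 1013 and 1011 in the PBS macrophages and 2590.2, 3803 and 3665 in the rIL-4 macrophages. Every rIL-4 macrophage library was above every other library. The difference was -1.65 (standard error 0.26, adjusted p = 0.0182, edgeR). *Vkorc1*, the vitamin K epoxide reductase of the endoplasmic reticulum, went from 812–1047 to 2039–2599.5 in macrophages and was at 1917–2177 and 1686–2222 in microglia, a difference of -1.51 (adjusted p = 0.0162, edgeR). It shares 47.7% of its exon bases with *Gm21974*. *Itm2c* (chr1:85894281-85908675), a membrane protein of the BRI family whose promoter is printed above, fell in microglia and rose in macrophages. *Itm2c* had 17781, 14107 and 14202 normalized counts in the PBS microglia, 10445, 9669 and 10527 in the rIL-4 microglia, 10846, 8914 and 10799 in the PBS macrophages and 15379, 13707 and 15441 in the rIL-4 macrophages. The difference was -1.17 (standard error 0.18, adjusted p = 0.0162, edgeR).

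Several of these genes act in the endoplasmic reticulum, where secreted and membrane proteins are folded, glycosylated and sent on. A list of 69 genes of this compartment was put together after the values were seen, so that its counts are a description. The response of 12 was larger in macrophages and of 0 larger in microglia, where 0.614% and 0.665% of all genes tested were called in these directions. The median difference was -0.62. In macrophages 33 rose, beside 3.20% of all genes, and 0 fell (median 0.60), and in microglia 4 rose and 1 fell (median 0.03). The called genes were the chaperones *Calr* and *Hsp90b1*, the disulfide isomerases *Pdia3*, *Pdia4* and *Pdia5*, the cochaperones *Dnajc3* and *Sdf2l1*, the retrieval receptors *Kdelr2* and *Kdelr3*, the glycosylation subunits *Ddost* and *Rpn1*, and the channel subunit *Sec61a1*. With the mouse as a block, edgeR called 11 of the 69 with a larger response in macrophages and 0 in microglia. Whether *Pdia3*, *Pdia5*, *Dnajc3*, *Sdf2l1*, *Ddost*, *Rpn1* and *Sec61a1* kept their call with the block or without a mouse is not given here.

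*Pdia4* had 9971, 12632 and 10357 normalized counts in the PBS microglia, 15662, 23565 and 23091 in the rIL-4 microglia, 15962, 15118 and 16063 in the PBS macrophages and 70584, 99777 and 77752 in the rIL-4 macrophages. *Pdia4* rose in both cell types, by 2.45 on the log2 scale in macrophages (adjusted p = 2.40e-05, edgeR) and by 0.93 in microglia (adjusted p = 0.0109, edgeR), with a difference of -1.52 (standard error 0.26, adjusted p = 0.0226, edgeR). *Calr*, calreticulin, went from 28909–31546 to 44081–48692 in macrophages and was at 21873–24400.0 and 17858–20929 in microglia, a difference of -0.94 (adjusted p = 0.0226, edgeR). *Kdelr3* went from 16.6–26.4 to 192–400.1 in macrophages, a difference of -4.17 (adjusted p = 0.00854, edgeR), and *Kdelr2* rose in macrophages and fell in microglia, with a difference of -1.11 (adjusted p = 0.0226, edgeR). The reticulocalbins, calcium-binding proteins of the same compartment, were called as well, with differences of -4.51 (adjusted p = 0.00448, edgeR) for *Rcn3* and -2.66 (adjusted p = 0.0204, edgeR) for *Rcn1*. *Hspa5*, the master chaperone BiP, had a difference of -0.71 (adjusted p = 0.232, edgeR), and *Xbp1*, a transcription factor of the unfolded protein response, of -0.54 (adjusted p = 0.358, edgeR). Neither passed the threshold.

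The calls of this direction also depended on single mice. *Acta2*, *Il11ra1* and *Pecam1* were called whichever of the 6 mice was left out. Without PBS mouse 3, the adjusted p in edgeR was 0.0660 for *Flrt2*, 0.0532 for *Rcn3* and 0.0853 for *Kdelr3*, and without PBS mouse 2 it was 0.0566 for *Kdelr3*. *Vkorc1*, *Cisd1*, *Pdlim1*, *Pdia4* and *Kdelr2* lost their call whichever PBS mouse was left out, and without rIL-4 mouse 10 (adjusted p from 0.0579 to 0.145 in those fits). *Rcn1* and *Tagln* lost their call whichever PBS mouse was left out, and without rIL-4 mouse 8 (0.0508 to 0.116). *Itm2c*, *Sept11*, *Calr* and *Hsp90b1* were called only without rIL-4 mouse 9 (0.0334, 0.0335, 0.0342 and 0.0287), and had up to 0.173 in the other fits.

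A last set of calls in this direction came from genes at or near 0 counts in rIL-4 microglia. Of the 97 genes, 27 were at 0 in all 3 rIL-4 microglia libraries, as were 658 of the 15800 genes tested, against 175 in PBS microglia. *Zfp821*, a zinc finger gene, had 99.7, 141 and 134 normalized counts in PBS microglia, 0 in each rIL-4 microglia library, 179, 268 and 276 in PBS macrophages and 117, 118 and 163 in rIL-4 macrophages. It was thus at least 44.2-fold lower with rIL-4 in microglia (adjusted p of the difference = 0.00417, edgeR). By the same bound, *Nrip2*, which interacts with nuclear receptors, was at least 192-fold lower (difference, adjusted p = 0.0109) and *Prokr1*, a prokineticin receptor, at least 48.3-fold lower (0.0113, edgeR). *Zfp418* went from 92.6–229 normalized counts in PBS microglia to 1 count in mouse 8 and 0 in the other rIL-4 microglia (adjusted p of the difference = 0.0127, edgeR). The lower number of genes with at least 1 count in the rIL-4 microglia, which at 10 counts lay below the PBS microglia and overlapped the macrophages, moved with these calls, and its part in them was not tested. Among the 11476 genes with a count in every library, 191 were called by edgeR, an alternative chosen after seeing the data. Without PBS mouse 3, *Zfp821* had an adjusted p of 0.0660, *Prokr1* 0.0885 and *Zfp418* 0.113, and without PBS mouse 1 *Nrip2* had 0.0853 and *Zfp418* 0.111 (edgeR). Without PBS mouse 2, *Nrip2*, *Prokr1* and *Zfp418* had 0.0647, 0.0563 and 0.0646.

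Most of the classical genes of the IL-4 response rose in each cell type. Of 30 effectors of alternative activation, 18 rose and 1 fell in microglia, and 19 rose and 2 fell in macrophages. The difference was called for 1 in favour of microglia and 2 in favour of macrophages, with a median of 0.48 (0.28 with genes at or under 3 counts in a group set to their bound, and -0.05 over the genes that reach 10 counts in each library). With the mouse as a block 4 and 3 were called. Among all genes tested, 0.665% and 0.614% were called for the difference in these directions, and 3.65% and 3.20% rose in microglia and macrophages. *Chil3* had 2014, 10155 and 3176 normalized counts in the PBS microglia, 457057, 796059 and 811861 in the rIL-4 microglia, 59054, 147122 and 114292 in the PBS macrophages and 3277918, 4199536 and 3480929.8 in the rIL-4 macrophages. *Chil3*, a chitinase-like protein, rose in both cell types without overlap of the groups and had a difference of 1.95 (standard error 0.72, adjusted p = 0.242, edgeR), with 0.0280 as the adjusted p with the block and 0.177 by DESeq2. *Mrc1*, the mannose receptor, had -0.57 (standard error 0.61, adjusted p = 0.808, edgeR), and *Retnla*, a resistin-like protein that was listed at up to 6.84 normalized counts with PBS and at 11209.9–13534 in rIL-4 microglia and 20122–47676 in rIL-4 macrophages, had an adjusted p of 0.333 (edgeR). Leaving out a mouse gave an adjusted p from 0.0823 to 0.602 for *Chil3* (edgeR).

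The called effectors were *Rnase2a*, *Hbegf* and *Pdcd1lg2*. *Rnase2a* belongs to the eosinophil-type ribonuclease family, whose members can share reads. *Rnase2a* had 9.77, 37.5 and 17.4 normalized counts in the PBS microglia, 3116, 3123 and 3312 in the rIL-4 microglia, 5.66, 9.47 and 6.59 in the PBS macrophages and 7963, 7412 and 8605 in the rIL-4 macrophages. It rose in both cell types and more so in macrophages, with a difference of -2.95 (standard error 0.51, adjusted p = 0.0236, edgeR). *Hbegf*, a ligand of the EGF receptor, went from 31.7–46.2 to 1511–7203 in macrophages, where mouse 9 was highest, and was at 173–924 and 604–2199.7 in microglia, a difference of -5.61 (adjusted p = 0.0313, edgeR). *Pdcd1lg2*, the checkpoint ligand PD-L2, had no count in the PBS microglia and was there at least 350.3-fold higher after rIL-4, while it went from 42.8–55.6 to 2601–6390.4 in macrophages (difference, adjusted p = 0.0494, and 0.0760 with the mouse as a block, edgeR). *Hbegf* and *Pdcd1lg2* were called in 1 of the 6 fits without a mouse, the fit without rIL-4 mouse 9, and *Rnase2a* in 3, with up to 0.187, 0.211 and 0.152 in the others.

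Upstream, the test of the difference called no gene of the IL-4 receptor pathway in edgeR. Of 28 genes of receptor signalling, 0 were called by edgeR (median difference -0.18, 2 above 0 and 3 below 0 at an unadjusted p under 0.05, 1 by DESeq2 and 0 with the block). The lowest p was that of the phosphatase gene *Ptpn6*, at 0.52 (adjusted p = 0.164, edgeR), which was the gene called by DESeq2 (adjusted p = 0.0122). Within a cell type, 5 rose and 5 fell with rIL-4 in microglia, and 6 rose and 3 fell in macrophages. Over all genes tested, 3.65% rose and 4.91% fell in microglia, and 3.20% rose and 4.39% fell in macrophages. *Il4ra* was at 5699.9, 9719 and 8211 normalized counts in PBS microglia, 4764, 17311 and 9566 in rIL-4 microglia, 20954, 25298 and 19509.9 in PBS macrophages and 12881, 49823 and 23461 in rIL-4 macrophages. Its levels were higher in macrophages of each mouse, and the difference in response was -0.01 (standard error 0.68, adjusted p = 1.000, edgeR). For *Stat6* the difference was 0.16 (standard error 0.20, adjusted p = 0.858, edgeR) and for *Il13ra1*, named after its values were seen, -0.53 (standard error 0.37, adjusted p = 0.628, edgeR). Of 27 transcription factors of alternative activation, 0 were called by edgeR (median -0.02, 3 at an unadjusted p under 0.05, 1 by DESeq2), with 1.63 (adjusted p = 0.0734, edgeR) for *Nr1h3*, the liver X receptor, 0.99 (adjusted p = 0.487, edgeR) for *Pparg* and -0.86 (adjusted p = 0.954, edgeR) for *Irf4*. *Irf4* was at 4.97, 160.0 and 0 normalized counts in the rIL-4 microglia of mice 8, 9 and 10, and its difference turned from -5.30 without rIL-4 mouse 9 to 1.55 without PBS mouse 1. That of *Pparg* was 1.71 without PBS mouse 2. Of 7 type 2 chemokines, 6 rose in microglia and 4 in macrophages. The difference was called by edgeR for 0 of them (1 at an unadjusted p under 0.05, 0 by DESeq2, 1 with the block), with a median of 0.51. *Ccl24* rose from 110.0–204 to 29837–73623 in microglia and from 300.2–598 to 66116–248375 in macrophages, a difference of -0.24 (standard error 0.65, adjusted p = 0.964, edgeR). *Ccl17* and *Ccl22* had no count in PBS microglia, and their differences had adjusted p of 0.402 and 0.218 (edgeR).

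In 3 further gene programmes few members passed the test of the difference. Of all genes tested, 4.39% fell and 3.20% rose in macrophages, and 4.91% fell and 3.65% rose in microglia. For the difference, 0.665% were called with a larger response in microglia and 0.614% in macrophages. Of 36 interferon-stimulated genes, 13 fell in macrophages and 1 in microglia. The difference was above 0 for 35 of them, with a median of 0.98, and 0 were called by edgeR (14 at an unadjusted p under 0.05, 5 by DESeq2, 2 with the block). The lowest p was that of *Slfn5*, a Schlafen gene, at 1.71 (adjusted p = 0.0660, edgeR). Of 35 proliferation genes, 21 fell in macrophages and 1 in microglia, with a median difference of 0.83 and 33 above 0. *Ube2c*, which ubiquitinates mitotic cyclins, was the only one called by edgeR (18 at an unadjusted p under 0.05, 8 by DESeq2, 3 with the block). It was at 3699–3964 and 2574–4096 in microglia and went from 489–801 to 186–249 in macrophages, with a difference of 1.41 (standard error 0.30, adjusted p = 0.0442, edgeR), and was not called in any fit without a mouse (0.0636 to 0.226). Of 32 inflammatory mediators, 11 fell and 0 rose in macrophages, 8 fell and 1 rose in microglia, with a median difference of 0.51 and 0 called by edgeR (6 above 0 and 2 below 0 at an unadjusted p under 0.05, 3 and 2 by DESeq2, 3 and 1 with the block). *Il1b* had a difference of 2.32 (adjusted p = 0.113, edgeR), and 0.0324 as the adjusted p with the mouse as a block. Genes of a list are not independent, so that these medians are descriptions.

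Antigen presentation by MHC class II showed both directions. Of 12 genes, 2 had a larger response in microglia and 1 a larger response in macrophages, with a median of 0.26. Over all genes tested, 0.665% and 0.614% were called in these directions. *Cd74* had 1049, 1252 and 643 normalized counts in the PBS microglia, 6988, 5879 and 5489 in the rIL-4 microglia, 21109.9, 11271 and 12856 in the PBS macrophages and 25536, 28752 and 17425 in the rIL-4 macrophages. *Cd74*, the invariant chain, rose in microglia by 2.65 on the log2 scale (adjusted p = 3.41e-04, edgeR), had 0.72 (adjusted p = 0.162, edgeR) as the log2 fold change in macrophages, and a difference of 1.93 (standard error 0.39, adjusted p = 0.0383, edgeR). *H2-Eb1*, a class II beta chain, rose from 95.3–408 to 1013–1219 in microglia, with a difference of 2.65 (adjusted p = 0.0494, edgeR) and an adjusted p of 0.0546 with the mouse as a block. *H2-DMa*, which loads peptides, rose from 2949–3339 to 4594–5942 in macrophages, with a difference of -1.04 (adjusted p = 0.0367, edgeR). *Cd74* and *H2-DMa* were not called in any fit without a mouse (adjusted p from 0.0554 to 0.170 and from 0.0579 to 0.197), and *H2-Eb1* only without PBS mouse 2 (0.0202).

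The 13 protein genes of the mitochondrial genome encode core subunits of the respiratory chain. Of these, 10 rose with rIL-4 in microglia (median 1.81) and 1 in macrophages (median 0.65), beside 3.65% and 3.20% of all genes tested. The difference was between 0.38 for *mt-Nd3* and 1.72 for *mt-Atp8*, with a median of 1.14, and 0 of the 13 were called by edgeR (10 at an unadjusted p under 0.05, 4 by DESeq2). All 13 stayed above 0 under each scaling tried. *mt-Co1* had 301752, 314899 and 395139 normalized counts in the PBS microglia, 2092987, 913808 and 1347630.0 in the rIL-4 microglia, 123410.1, 88076 and 97800.0 in the PBS macrophages and 246921, 159152 and 182521 in the rIL-4 macrophages. *mt-Co1* was higher with rIL-4 in all microglia, most of all in mouse 8, and its difference was 1.14 (standard error 0.38, adjusted p = 0.189, edgeR). The adjusted p over the 13 genes ranged from 0.0693 for *mt-Atp8* to 0.871 for *mt-Nd3* (edgeR). For the other 10 the differences were 1.24 (adjusted p = 0.117, edgeR) for *mt-Nd5*, 1.46 for *mt-Nd6*, 1.27 for *mt-Atp6*, 1.15 for *mt-Nd2* (0.0346 as its adjusted p with the block), 1.12 for *mt-Nd1*, 1.00 for *mt-Nd4*, 1.57 for *mt-Nd4l*, 0.91 for *mt-Co2*, 1.03 for *mt-Co3* and 0.97 for *mt-Cytb*. Single PBS mice moved some of these values, and that of *mt-Nd4l* was 0.58 without PBS mouse 1 and 2.53 without PBS mouse 3, and that of *mt-Co3* 0.29 without PBS mouse 3 and 1.71 without PBS mouse 2. These genes are transcribed together, are not independent, and have near-copies in the nuclear genome with which they can share reads. Of 77 nuclear-encoded subunits, 12 rose in microglia and 14 in macrophages, and 0 were called for the difference, with 0 at an unadjusted p under 0.05 and 0 by DESeq2 (median 0.13, lowest adjusted p = 0.464 for *Uqcrc1*). Of 24 glycolysis genes, 0 were called by edgeR and 1 by DESeq2 (median 0.03, 1 at an unadjusted p under 0.05), with the lowest p for *Pfkfb3*, at 1.02 (adjusted p = 0.0772, edgeR). Of 30 genes of sterol and fatty acid synthesis, 0 were called by edgeR and 2 by DESeq2 (median -0.50, 4 at an unadjusted p under 0.05), with -1.32 (adjusted p = 0.0685, edgeR) for *Scd2*.

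**Figure D5:**
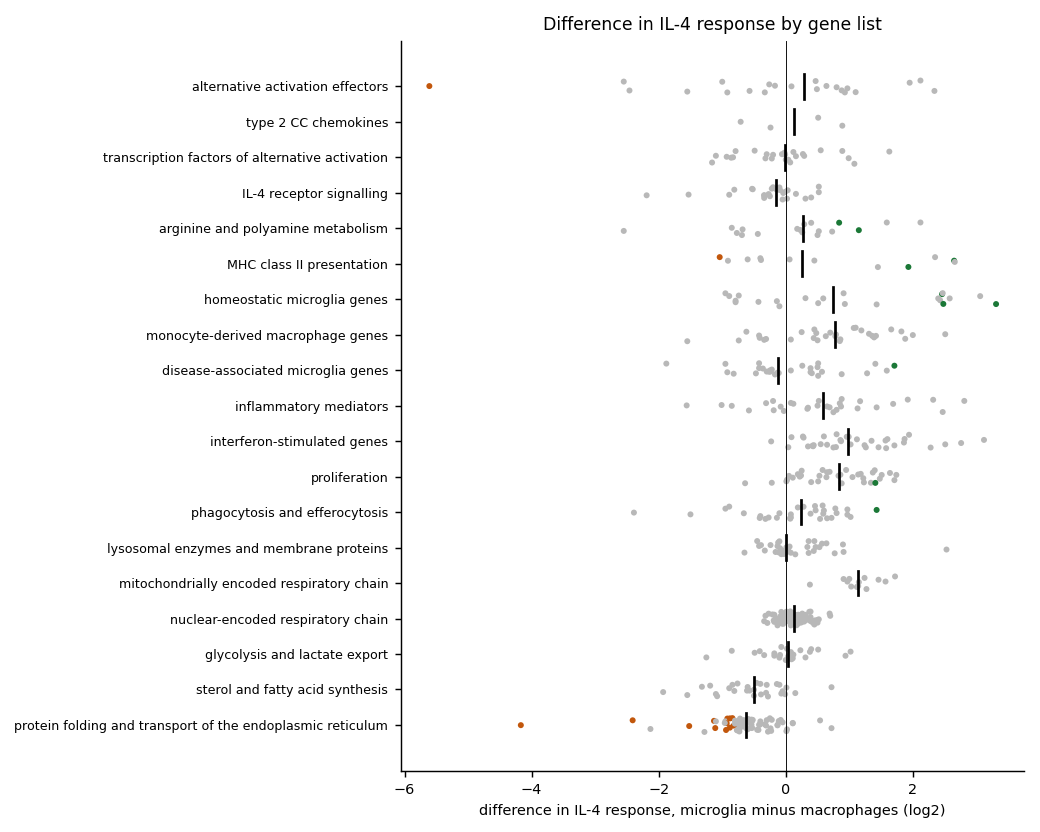
Difference in IL-4 response, microglia minus macrophages (horizontal axis, log2), of the members of 19 gene lists with a mean of at least 10 normalized counts in every group. Points are genes (green, called with a larger response in microglia; orange, called with a larger response in macrophages; grey, not called) and bars are medians of the genes drawn. The mitochondrially encoded genes all lie above 0 and 0 of them were called. The 12 called genes of the endoplasmic reticulum all lie below 0, in a list put together after the values were seen.

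Of 28 growth and trophic factors, 2 had a larger response in microglia (*Tgfa* and *Lgals3*) and 2 a larger response in macrophages (*Hbegf* and *Tgfb3*), with a median of -0.65 (-0.32 at bounds). The shares of all genes tested called in these directions were 0.665% and 0.614%. *Lgals3* had 11796, 20731 and 12515 normalized counts in the PBS microglia, 53938, 64193 and 72137 in the rIL-4 microglia, 103183, 138537 and 133076 in the PBS macrophages and 138434, 167403 and 165752 in the rIL-4 macrophages. *Lgals3*, galectin-3, rose in microglia by 2.09 on the log2 scale (adjusted p = 2.99e-04, edgeR) and remained below every macrophage library, with a difference of 1.71 (standard error 0.31, adjusted p = 0.0273, edgeR). It was also the only call in edgeR among 30 genes of disease-associated microglia (median -0.12), of which 5 were above and 3 below 0 at an unadjusted p under 0.05, 4 and 1 were called by DESeq2 and 4 and 2 with the block. *Tgfb3*, a transforming growth factor beta, went from 18.7–48.5 to 559.5–1989 in macrophages, with 103, 1152 and 125 in the rIL-4 microglia of mice 8, 9 and 10 and a difference of -5.81 (adjusted p = 0.0441, edgeR). Mouse 9 was the highest in both cell types, and without it the difference was -7.41. *Lgals3* was called in 2 and *Tgfb3* in 1 of the 6 fits without a mouse, with up to 0.187 and 0.228 in the others.

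Of 18 genes of arginine and polyamine metabolism, 2 had a larger response in microglia (median 0.28), as had 0.665% of all genes tested. *Ass1*, argininosuccinate synthase, which regenerates arginine, rose from 948–1046 to 3536–4493 in microglia and from 1132–1281 to 1674–2537 in macrophages, a difference of 1.15 (standard error 0.24, adjusted p = 0.0403, edgeR). *Azin1*, an inhibitor of the antizyme that degrades ornithine decarboxylase, fell in macrophages from 8539–9069.6 to 5008–5749, a difference of 0.84 (standard error 0.18, adjusted p = 0.0442, edgeR). With the mouse as a block, their adjusted p was 0.0940 and 0.0760. Without a mouse, *Ass1* was called in 1 of 6 fits and *Azin1* in 0, with up to 0.213 and 0.189. Of 34 phagocytosis genes, *Gas6*, the ligand of the receptors Axl and Mertk, was called. It fell from 10065–11432 to 3660.4–5861 in microglia and from 5620.3–7113 to 838–1383 in macrophages, a difference of 1.43 (standard error 0.30, adjusted p = 0.0442, edgeR), and was called in 1 of 6 fits without a mouse (up to 0.221). The list's median was 0.23. Of 35 lysosomal genes, 0 were called by edgeR and 2 by DESeq2 (median 0.01, 6 above 0 and 2 below 0 at an unadjusted p under 0.05), with 2.53 (adjusted p = 0.0634, edgeR) for *Atp6v0d2*, a proton pump subunit, whose adjusted p was 0.0306 with the mouse as a block. Among 31 immediate early and dissociation stress genes, *Gadd45b*, a stress-induced regulator of growth arrest, was called at 1.34 (adjusted p = 0.0436, edgeR), with 0.0522 under the block, and was not called in any fit without a mouse. The median was -0.01.

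Markers of other cells were examined in the same contrast, in which 0.665% of all genes tested had a larger response in microglia and 0.614% in macrophages. Of 9 markers of border-associated macrophages, 2 had a larger response in microglia. *Clec4n* had 408, 799 and 463 normalized counts in the PBS microglia, 233, 329 and 353 in the rIL-4 microglia, 7892, 10060.1 and 8255 in the PBS macrophages and 573, 1039 and 746 in the rIL-4 macrophages. *Clec4n*, the fungal receptor dectin-2, dropped in macrophages, with a difference of 2.57 (standard error 0.40, adjusted p = 0.0162, edgeR). *Ms4a7* rose from 617–762 to 1362–2668 in microglia, with a difference of 1.83 (adjusted p = 0.0332, edgeR). Both oligodendrocyte calls, *Mbp* at 1.52 (adjusted p = 0.0434, edgeR) and *Mobp* at 2.17 (adjusted p = 0.0434, edgeR), encode myelin proteins. *Gja1*, the connexin of astrocytes, went from 218–296 to 2054–18682 in macrophages, highest in mouse 9, with a difference of -5.13 (adjusted p = 0.0293, edgeR). Without a mouse, *Clec4n* was called in 3 of 6 fits, *Gja1* in 2, *Ms4a7* and *Mobp* in 1 and *Mbp* and *Cldn5* in 0. *Tek* was called in 1, the fit without rIL-4 mouse 10.

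For each marker list, the genes called with a larger response in microglia and in macrophages were 2 and 1 of 15 for endothelium (median difference 1.57, and -0.48 over the genes that reach 10 counts in each library), 2 and 0 of 9 for oligodendrocytes (1.52, and 0.33 at bounds), 0 and 1 of 10 for astrocytes (-0.09), 2 and 0 of 9 for border-associated macrophages (0.97) and 1 and 0 of 9 for dendritic cells (2.42, and 2.64 at bounds). Of 22 markers of fibroblasts and pericytes 0 were called by edgeR and 3 by DESeq2 (4 at an unadjusted p under 0.05, median 1.21, and 0.55 at bounds), where *Postn*, periostin, had 1.64 (adjusted p = 0.104, edgeR) and 0.00742 under the block, and where *Dcn*, decorin, was at 16082–38485 in PBS microglia and 814–10083 in rIL-4 microglia. Neither edgeR nor DESeq2 called a marker of neurons (7, *Stmn2* with adjusted p = 0.314), neutrophils (15, *Elane* 0.364), lymphocytes (4, *Ighm* 0.364, and 0.0371 under the block), eosinophils, mast cells (3, *Ccr3* 0.390) or erythroid cells (5, *Hba-a1* 0.754, edgeR), and at an unadjusted p under 0.05 there were 2 in neurons, 1 in neutrophils, 1 in lymphocytes and 0 in the others.

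IL-13 shares a receptor with IL-4, and the 6 libraries of 3 mice injected with rIL-13 allowed the cell type difference to be compared between the cytokines. The contrast of rIL-4 against rIL-13 in microglia minus the same in macrophages was called for 23 of 16535 genes (0.139%), 11 larger in microglia (0.0665%) and 12 larger in macrophages (0.0726%). At an unadjusted p under 0.05 there were 1654, and with the mouse as a block 6 were called. The contrast uses the same rIL-4 libraries as the comparison with PBS, so that the values are set side by side only. *Pmp22* had 1.57 (adjusted p = 0.0261, edgeR) against rIL-13, beside 2.31 against PBS, and *Cd5l* had 2.64 (adjusted p = 0.0446, edgeR), beside 3.32. For *Cd72* the values were 1.76 (adjusted p = 0.0451, edgeR) and 2.18, and for *St3gal6* 2.88 (adjusted p = 0.0497, edgeR) and 4.51, with 0.0613 and 0.0934 as the adjusted p with the block. *Tgfa* and *Ecscr* were called as well, at 3.27 (adjusted p = 0.0446, edgeR) and 3.12 (adjusted p = 0.0270, edgeR), and had 0.0650 and 0.0857 with the block. The other 8 leading genes with a larger response in microglia that were measurable in every group were not called, and the lowest was 0.74 for *Rgs1*. With the block, *Fcrls*, *Gpr34* and *Postn* were called at an adjusted p of 0.0444 each, against 0.291, 0.431 and 0.341 without it (edgeR).

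Of the 12 leading genes with a larger response in macrophages, 0 were called against rIL-13 by edgeR, with values from -2.47 for *Kdelr3* to -0.29 for *Cisd1* and a lowest adjusted p of 0.179. *Acta2* had -0.95 (adjusted p = 0.460, edgeR) and *Pecam1* -0.58 (adjusted p = 0.789, edgeR). The 12 genes called as larger in macrophages included 11 without a count in any rIL-4 microglia library, among them *Zfp821* at an adjusted p of 0.00285 (0.0538 with the block) and *Nrip2* at 0.0270 (0.104). The other was *Zfp418*, with its 1 count in mouse 8, at 0.0270 (0.170). Among genes that reach 10 counts in each library, 1 was called.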

How the data were processed

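RNA was extracted from sorted microglia and macrophages and amplified with SMART-seq2, which keeps neither strand nor molecular identifiers. Reads were aligned by the authors to GRCm38 with STAR 2.5.3a, and the deposited values are expected counts per gene from RSEM 1.3.0. They were rounded to whole numbers here. Both cell types of the 12 libraries (3 mice per injection) entered 1 fit with a mean per group in edgeR 4.0.16 (R 4.3.3): filterByExpr, TMM scaling and the quasi-likelihood F test, with Benjamini-Hochberg adjustment over the 15800 genes tested and a threshold of 0.05. The contrast with rIL-13 used all 18 libraries. Normalized counts are counts divided by DESeq2 1.42.0 size factors. A gene counted as measurable with a mean of at least 10 normalized counts in each group, and a fold against a group at 0 was given as a bound from 3 counts per library. Medians at bounds used this for every gene with a group at or under 3 counts. Intervals and bounds cover counting error only.

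The libraries of a mouse were treated as pairs in an alternative fit, since the labels number the mice. The deviations of the cell types from their group means correlated with r = 0.167, 0.266 and 0.0716 in the PBS mice and 0.0902, 0.169 and 0.142 in the rIL-4 mice (10422 genes). Other alternatives were the DESeq2 Wald test, other scalings and filters, all 18 libraries in 1 fit and each mouse left out. The fitting steps were tested on simulated data. The comparison, the 31 gene lists and the rule for named genes were chosen with earlier results of these data known, and 2 lists and 12 genes were added after the values were seen. Genes were named by rule: the 12 measurable called genes with the lowest p in each direction, the 4 lowest in each direction with a group under 10, up to 4 called members of each list or its member with the lowest p, and a set of IL-4 target, microglia and mitochondrial genes. Gene coordinates are those of GENCODE vM21, in which 53274 of 53465 gene IDs were found, and promoters are from RefSeq on GRCm38.p6. Some genes of the lists are not reported here by name.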

Additional observations from a re-analysis of the deposited data

Results flagged for a closer look

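The response to rIL-4 was tested directly for a difference between microglia and macrophages, and this difference passed an adjusted p of 0.05 (edgeR) with a larger response in microglia for 105 genes and in macrophages for 97. Larger means more positive, and includes genes that fell less in the named cell type, such as *Acta2* in macrophages. Among the genes with a larger response in microglia, the log2 differences were 2.31 for *Pmp22*, 2.18 for *Cd72*, 4.51 for *St3gal6*, 3.40 for *Jam2*, 1.56 for *Ckb*, 1.71 for *Rgs1*, 4.60 for *Dhrs9*, 3.32 for *Cd5l*, 3.28 for *Cd34*, 3.49 for *Ctla2a*, 3.31 for *Sparc* and 2.52 for *Hpgds*. Among those with a larger response in macrophages they were -3.08 for *Acta2*, -1.90 for *Il11ra1*, -3.81 for *Flrt2*, -4.51 for *Rcn3*, -3.70 for *Pecam1*, -4.17 for *Kdelr3*, -1.51 for *Vkorc1*, -1.17 for *Itm2c*, -1.65 for *Cisd1*, -2.66 for *Rcn1*, -1.49 for *Sept11* and -3.07 for *Pdlim1*. These 24 genes have a mean of at least 10 normalized counts in every group, and each is listed because its effect differed between the cell types by the test of the difference itself. The groups of 3 libraries were too small for a search for single outlying libraries.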

How the results depend on the processing

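The DESeq2 Wald test called 849 genes for the difference between cell types (476 larger in microglia, 373 larger in macrophages), 2198 for the microglia response (931 higher and 1267 lower with rIL-4), 2004 for the macrophage response, of which 1292 were lower, and 300 for the contrast with rIL-13 (150 larger in microglia and 150 larger in macrophages). Genes within 5-fold between the cell types, an alternative chosen after seeing the data, gave 117 calls, of which 51 were larger in microglia. With at least 10 counts in every library, 437 genes were lower in rIL-4 microglia, and the contrast with rIL-13 called 1 gene, larger in microglia, and 0 larger in macrophages. With all 18 libraries in 1 fit, 467 genes were lower in rIL-4 microglia and the difference between cell types was called for 164 genes, of which 134 were among the 202. Among the genes named in the report, *Grip2* and genes given by name only are left aside here. The others that lost the call in that fit were *Rgs1* (adjusted p = 0.0760, edgeR), *Slco1c1* (0.0652), *Prokr1* (0.0586), *Pdcd1lg2* (0.0590), *Cd74* (0.0623), *H2-DMa* (0.255), *H2-Eb1* (0.346), *Ass1* (0.193), *Azin1* (0.0742) and *Mobp* (0.0623). With the mouse as a replicate block, the difference between cell types was called for 186 genes, of which 112 were among the 202, and the contrast with rIL-13 for 6 genes, all larger in microglia, with 0 larger in macrophages. With *Grip2*, *Rasgrp4*, *Ccnb2* and genes given by name only left aside, the calls that the block changed are given in the report with their blocked p.

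Leaving out each mouse in turn gave 14 to 204 calls for the difference between cell types (10 to 90 larger in microglia, 4 to 114 larger in macrophages), 335 to 1396 for the microglia response (188 to 589 higher, 147 to 816 lower), 577 to 1151 for the macrophage response (237 to 425 higher, 340 to 741 lower) and 2 to 28 for the contrast with rIL-13 (1 to 6 larger in microglia, 1 to 23 larger in macrophages). The cause of these changes was not tested. The other scalings and filters kept the count of the difference between 180 and 215, although all genes with any count gave 148 larger in microglia and 67 larger in macrophages and the replicate block 117 and 69, and each of the 202 genes kept its sign in every alternative in which it was tested. As the alternatives share libraries with the main fit, the kept signs are no separate test. Besides those given in the report, leaving out a mouse moved the fold of the difference by over 1.5 times for the called genes *H2-Eb1* (3.50 without PBS mouse 2), *Tek* (4.73 without rIL-4 mouse 10), *Gja1* (-4.43 without rIL-4 mouse 9), *Dhrs9* without PBS mouse 3, and, with a group at or near 0, *Zfp418*, *Nrip2* and *Ccr7*. It did so too for genes that were not called, among them *Atp6v0d2* (3.31 without PBS mouse 3), *Chil3* (2.60 without PBS mouse 2) and *Ccr2* (1.45 without rIL-4 mouse 9). The median difference over all genes tested was -0.01 with TMM, 0.03 with DESeq2 size factors and 0.02 with TMM within each cell type. With 3 mice per group, counts near 0 set the limit for genes absent from a group, and an exact permutation test of single values could not go below 0.1.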
